A study of Mus musculus with 10 samples.

Results

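Interferon-stimulated genes are the genes that cells switch on when interferon, a secreted alarm protein of antiviral defence, reaches their surface receptors. The transcript levels of 45 such genes are described here in mouse ear and lung cells, out of 22594 genes measured. The 45 are known interferon targets, and the list was chosen with earlier results of these data known. Shares of its genes that were called are therefore given beside those of all genes without a test of the list. The level of a gene is its TPM, which gives a transcript's share of its library after correction for transcript length, summed over all transcripts of the gene. RNA of 10 libraries had been sequenced. The labels call all of them fibroblasts, the connective tissue cells that make extracellular matrix, and give post-mortem as their condition. There were 3 ear libraries at 0 h, 3 ear libraries at 12 h, 2 lung libraries at 0 h and 2 lung libraries at 12 h. No treatment, strain, genotype, age or sex is given in the labels, nor whether the libraries of a group came from separate animals. A p-value therefore measures only the spread between these libraries, which may be technical. At 0 h the spread was not only technical. The Y-linked gene Ddx3y was at 52.4 TPM in ear 0 h replicate 2 and 53.3 TPM in lung 0 h replicate 2. In the other 0 h libraries it was near 0.

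Type I interferons bind the receptor made of Ifnar1 and Ifnar2, and type III interferons bind Ifnlr1 with Il10rb. Both signal through receptor-bound kinases to a complex that holds Stat2 and Irf9, which enters the nucleus and binds a DNA element called the interferon-stimulated response element (ISRE). Interferon gamma binds Ifngr1 and Ifngr2 and acts on another element, the gamma-activated site (GAS). Fibroblasts are a classical cell type of interferon research, and macrophages also make and answer interferon.

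The label was checked against marker genes. All 10 fibroblast markers were detected in every library, with a summed level of 5585 to 13856 TPM in ear and 3336 to 6600 TPM in lung. Averaged over both times, 9 of the 10 were lower in lung, with a median log2 fold change of -1.49 (-0.11 for all genes). The difference was called for 5 of them, all lower in lung, where 15.9% of all genes were called lower. For 3 of the 10, every lung library was below every ear library, as in 15.2% of all genes. The 14 macrophage markers were each higher in every lung library than in every ear library. Their summed level was 26.3 to 55.8 TPM in ear. The lung libraries reached 7107 and 5344 TPM at 0 h and 7329 and 16932 TPM at 12 h, the last in replicate 2. Lyz2, the lysozyme of myeloid cells, alone reached 4775 TPM or more in each lung library. The lung libraries therefore held macrophage transcripts beside fibroblast ones, and a gene's level in them is a level of that mixture. In such bulk samples, fewer cells of a type and less RNA per cell cannot be told apart. The 8 dendritic cell markers summed to 1.35 to 3.49 TPM in ear and 10.4 to 53.2 TPM in lung, mostly through Itgax, which macrophages share, while the defining markers Siglech, Flt3 and Xcr1 were listed at 0 in all 10 libraries. The 10 lymphocyte markers summed to at most 1.42 TPM, with Cd8a and Klrb1c among those at 0 throughout. The 6 neutrophil markers summed to 1.54 to 10.3 TPM in ear and 39.9 to 58.2 TPM in lung. Of these 6, 3 were higher in every lung library than in every ear library and 0 were lower. Ly6g was at 0 in every lung library. The 8 endothelial markers summed to 25.8 to 73.1 TPM in ear and 18.5 to 24.99 TPM in lung, and the 8 epithelial markers to 2.01 to 4.78 TPM in ear and 12.6 to 42.9 TPM in lung. The Y-linked genes Ddx3y, Eif2s3y and Kdm5d were present in ear 0 h replicate 2 and lung 0 h replicate 2 (52.4 and 53.3 TPM of Ddx3y) and at most 0.758 TPM elsewhere. Another Y-linked gene, Uty, did not follow that split and was at 33.3 to 89.2 TPM in all 10 libraries. Most of this lay on 1 transcript annotated for nonsense-mediated decay, while its other transcripts summed to 15.7 TPM in ear 0 h replicate 2, 13.99 TPM in lung 0 h replicate 2 and at most 0.0354 TPM elsewhere.

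The promoters of these genes were searched for the letters of the ISRE and the GAS. In RefSeq promoters of build GRCm38.p6, each running from 250 bases before to 50 bases after the gene start, 34 of the 45 genes were found by symbol. The ISRE was searched as GAAA, then NN (any 2 bases), then GAAA, on both strands, with overlapping matches counted, and 18 of the 34 promoters (52.9%) held it, against 3.99% of all 27025 genes in the table. The GAS motif, searched as TTCNNNGAA on both strands, was in 11 of 34 (32.4%), against 9.55% of all genes. A match describes letters only and does not show binding. Stretches of 134 to 160 bases that end at or just before the start of the gene are printed for 6 genes called between the tissues, picked because they hold the ISRE, to show how its copies are spaced, with no exon base of GENCODE vM21, from 5′ to 3′ on the strand of the gene, and capitals mark the ISRE matches (a match on the other strand reads TTTC, NN, TTTC). The first 5 belong to genes that were lower in lung than in ear, and the last to a gene that was higher.
Ifit1, chr19:34640729-34640870, plus strand: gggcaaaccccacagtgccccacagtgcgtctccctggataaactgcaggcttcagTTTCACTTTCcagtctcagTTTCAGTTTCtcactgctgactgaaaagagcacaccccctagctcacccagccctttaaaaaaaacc
Ifit3, chr19:34583369-34583528, plus strand: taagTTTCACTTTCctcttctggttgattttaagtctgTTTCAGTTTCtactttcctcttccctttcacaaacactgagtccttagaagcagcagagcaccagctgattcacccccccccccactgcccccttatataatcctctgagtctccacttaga
Isg15, chr4:156200819-156200978, minus strand: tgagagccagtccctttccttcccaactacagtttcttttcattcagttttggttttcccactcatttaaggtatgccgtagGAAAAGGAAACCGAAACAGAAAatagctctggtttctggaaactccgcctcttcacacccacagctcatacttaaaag
Ifitm2, chr7:140955988-140956121, minus strand: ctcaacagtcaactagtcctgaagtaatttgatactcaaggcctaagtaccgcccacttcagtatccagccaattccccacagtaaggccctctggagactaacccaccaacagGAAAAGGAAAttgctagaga
Igtp, chr11:58199396-58199555, plus strand: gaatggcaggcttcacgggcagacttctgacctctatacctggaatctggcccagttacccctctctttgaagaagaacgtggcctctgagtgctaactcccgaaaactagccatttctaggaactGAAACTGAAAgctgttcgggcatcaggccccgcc
Oas1a, chr5:120907526-120907685, minus strand: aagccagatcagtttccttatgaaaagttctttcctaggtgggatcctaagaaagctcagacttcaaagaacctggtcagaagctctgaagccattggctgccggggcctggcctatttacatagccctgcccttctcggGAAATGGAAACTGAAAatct

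The promoters of Ifit1 and Ifit3 each held 2 separate matches, the first 104 and 156 bases before the RefSeq start. For Ifit1 that start lies 18 bases after the first exon base of GENCODE. The promoter of Ifit2, the remaining IFIT gene, held no ISRE match and did hold the GAS motif. Isg15 held 3 matches that overlap in 1 run and begin 78, 72 and 66 bases before its start. Oas1a held 2 overlapping ones close to its start. The motif did not part the genes by direction. Of the 14 genes called lower in lung over both times, 7 held it, 5 did not and 2 were not in the table, and both genes called higher, Oas1a and Irgm1, held it.

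Comparison of lung with ear asked how the expression of these genes differs with the tissue of origin. Averaged over both times, 14 of the 39 genes that could be tested were lower in lung and 2 were higher. The lower genes included the IFIT genes, the membrane restriction factors Ifitm2 and Ifitm3, the transcription factor genes Irf7, Irf9 and Stat2, and the modifier gene Isg15. The largest difference among them was that of Ifit1, with a mean of 5.52 ± 2.24 TPM in ear (SD over both times, n = 6) and 0.578 ± 0.244 TPM in lung (n = 4). The 2 higher genes were Oas1a, an oligoadenylate synthetase, and Irgm1, an immunity-related GTPase. A gene is called here when its adjusted p is under 0.05, from limma on log2(TPM + 1), with Benjamini-Hochberg adjustment over all genes tested. Together they are 16 of 39, where 28.2% of all 13188 genes tested were called in either direction. The 14 make 35.9% of the members tested, where 15.9% of all genes were called lower, and the 2 make 5.13%, where 12.3% were called higher. The median log2 fold change of the 39 was -0.59, and that of all genes was -0.11. The fold change was negative for 82.1% of the members and for 60.6% of all genes. With the 6 untested members added, the median of the 45 was -0.52. Without lung 0 h replicate 1 the number of members called fell from 16 to 8, and these 8 were Stat2, Ifit1, Ifit2, Ifit3, Oas1a, Ifitm2, Ifitm3 and Irgm1, which also kept their calls when any other library was left out.

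**Figure D1:**
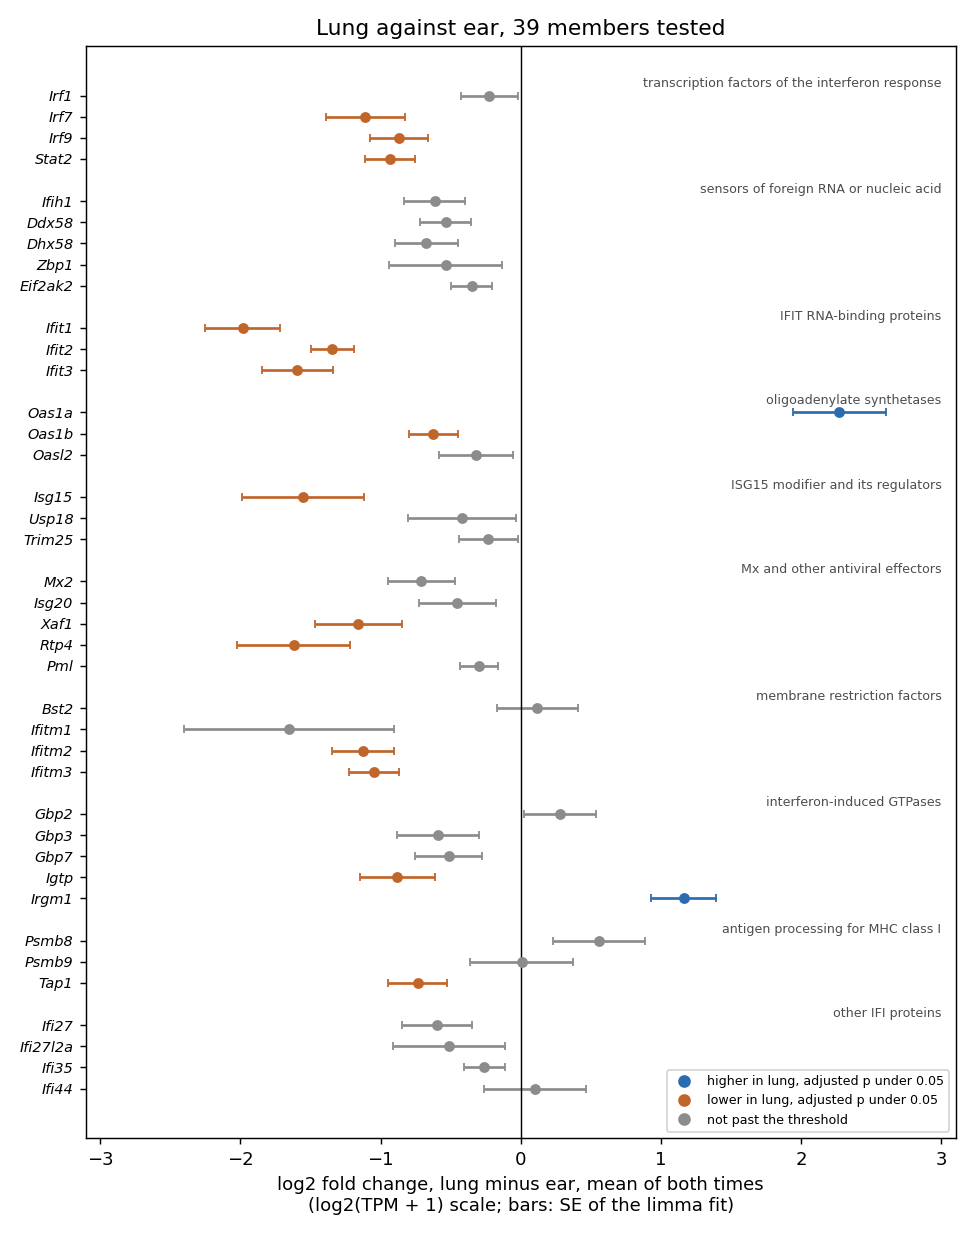
Log2 fold change of lung minus ear, averaged over both times, for the 39 genes tested, on the log2(TPM + 1) scale and grouped by role; points are the fitted values and bars their SE (10 libraries). The 14 orange points left of 0 and the 2 blue points right of it passed the threshold, from -1.98 for Ifit1 to 2.27 for Oas1a.

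The IFIT genes encode proteins that bind RNA with foreign ends and block its translation, and all 3 were lower in lung. Ifit1 (ENSMUSG00000034459.8, chromosome 19, 34640871 to 34650009 of GRCm38) was at 2.57, 8.81 and 3.60 TPM in the ear libraries at 0 h and at 5.98, 6.78 and 5.41 TPM at 12 h. In lung it was at 0.245 and 0.640 TPM at 0 h and at 0.828 and 0.601 TPM at 12 h. Every lung library was thus below every ear library, a pattern seen in 15.2% of all genes tested. The log2 fold change was -1.98 (SE 0.27, adjusted p = 0.000657), with a mean TPM 9.55-fold higher in ear. Ifit2 had the highest level of the 3. Its ear libraries held 78.9, 67.7 and 54.1 TPM at 0 h and 45.5, 57.8 and 43.9 TPM at 12 h, and its lung libraries 18.6, 22.1, 26.7 and 20.4 TPM in the same order of times. The tissues did not overlap (log2 fold change -1.35, SE 0.15, adjusted p = 0.000254). Ifit3 was at 3.73, 7.29 and 2.46 TPM in ear at 0 h and 4.72, 6.64 and 4.45 TPM at 12 h. In lung it was at 0.642 and 0.703 TPM at 0 h and 1.55 and 0.721 TPM at 12 h, again below every ear library (log2 fold change -1.59, SE 0.25, adjusted p = 0.00162). Ifit3 has a near-identical copy, Ifit3b, so the division of their reads is uncertain. Ifit3b was itself at 2.43 to 6.19 TPM in ear and 0.214 to 0.496 TPM in lung, which is the same order of the tissues. Ifit2 and Ifit3 lie beside Ifit1 on chromosome 19.

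The factors that carry the interferon signal to DNA showed the same order of the tissues. Stat2, a subunit of the complex that binds the ISRE, was at 13.8, 14.2 and 9.45 TPM in ear at 0 h and 19.2, 12.7 and 12.8 TPM at 12 h. Its lung levels were 5.001 and 6.73 TPM at 0 h and 7.02 and 7.72 TPM at 12 h, all below the ear libraries (log2 fold change -0.93, SE 0.18, adjusted p = 0.00426). Irf9, the DNA-binding subunit of that complex, was at 16.8, 27.9 and 16.2 TPM in ear at 0 h and 26.9, 21.7 and 18.6 TPM at 12 h. In lung it was at 7.28 and 12.0 TPM at 0 h and at 13.7 and 12.1 TPM at 12 h, with no overlap (log2 fold change -0.87, SE 0.20, adjusted p = 0.0118). Irf7, which drives interferon genes once a first signal has been received, was at 3.65, 10.4 and 4.59 TPM in ear at 0 h and 8.93, 7.32 and 5.85 TPM at 12 h. The lung libraries held 1.40 and 3.45 TPM at 0 h and 2.74 and 2.54 TPM at 12 h, below every ear library (log2 fold change -1.11, SE 0.28, adjusted p = 0.0172). Irf9 lost its call without lung 0 h replicate 1 (-0.71, adjusted p = 0.0577), and Irf7 without lung 0 h replicate 1 (-0.89, adjusted p = 0.0798) or lung 12 h replicate 2 (-1.09, adjusted p = 0.0501). Irf1, the fourth factor and one that interferon gamma induces, was not called. It was at 22.9 to 35.5 TPM in ear and 14.8 to 35.7 TPM in lung, ranges that overlap.

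The sensors that find foreign nucleic acid in the cell were not called, although their fold changes were negative for all 5. Dhx58 was just outside the threshold (log2 fold change -0.67, SE 0.22, adjusted p = 0.0501). Ifih1 and Ddx58, RNA helicases that start interferon production, were at -0.61 (SE 0.22, adjusted p = 0.064) and -0.54 (SE 0.18, adjusted p = 0.0539). These calls depended on the settings. Dhx58 was called with a pseudocount of 0.1 and without the variance trend, Dhx58 and Ifih1 under quantile normalization, and both with Ddx58 under upper-quartile scaling. Leaving out 1 library gave calls of Dhx58 and Ifih1 without lung 12 h replicate 2, of these and Ddx58 without ear 0 h replicate 3, and of Ddx58 and Eif2ak2 without lung 0 h replicate 2. Zbp1, which binds Z-form nucleic acid, and Eif2ak2, the kinase that halts translation on double-stranded RNA, were at -0.53 (SE 0.40) and -0.35 (SE 0.15).

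The membrane restriction factors made up most of the transcripts of the 45 genes. Ifitm2 and Ifitm3 encode small membrane proteins that hinder viruses from fusing with the cell's vesicles, and together they held 68.4% to 79.6% of the summed TPM of the 45 genes in ear and 56.0% to 69.7% in lung. Ifitm3 was at 760, 806 and 628 TPM in ear at 0 h and at 1032, 727 and 905 TPM at 12 h. Lung held 321 and 526 TPM at 0 h and 421 and 314 TPM at 12 h, below every ear library (log2 fold change -1.05, SE 0.18, adjusted p = 0.00256). Ifitm2 was at 1007, 881 and 774 TPM in ear at 0 h and at 1442, 729 and 1297 TPM at 12 h. Lung held 383 and 608 TPM at 0 h and 457 and 397 TPM at 12 h, again with no overlap (log2 fold change -1.12, SE 0.22, adjusted p = 0.00483). Ifitm1 stood apart in ear 12 h replicate 1, at 159 TPM, while its other libraries held 2.53 to 20.5 TPM, and it was not called (-1.65, SE 0.75, adjusted p = 0.131). Without ear 12 h replicate 2, where it was at 6.33 TPM, it was called. Bst2, which tethers budding virus to the cell surface, was at 13.4 to 41.9 TPM in ear and 19.9 to 40.5 TPM in lung and did not part the tissues. The sum over all 45 genes was 1898 to 3380 TPM in ear and 1043 to 1628 TPM in lung, without overlap, and without the 3 Ifitm genes and Ifi27 it was 347 to 559 TPM in ear and 253 to 443 TPM in lung, with overlap.

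The ISG15 system tags proteins with a ubiquitin-like modifier. Isg15 was at 7.80, 41.8 and 14.5 TPM in ear at 0 h and at 21.4, 26.7 and 13.9 TPM at 12 h. Its lung levels were 2.97 and 7.03 TPM at 0 h and 9.27 and 4.85 TPM at 12 h. The tissues overlapped by 1 library of each, lung 12 h replicate 1 above ear 0 h replicate 1 (log2 fold change -1.55, SE 0.43, adjusted p = 0.0255). The call was lost without lung 0 h replicate 1 (-1.30, adjusted p = 0.111), lung 12 h replicate 2 (-1.35, adjusted p = 0.0895) or ear 12 h replicate 2 (-1.45, adjusted p = 0.0511). It was also lost without the filter on low values (adjusted p = 0.0525). Usp18, which removes the modifier, and Trim25, a ligase, were at -0.42 (SE 0.38) and -0.23 (SE 0.21) and were not called.

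**Figure D2:**
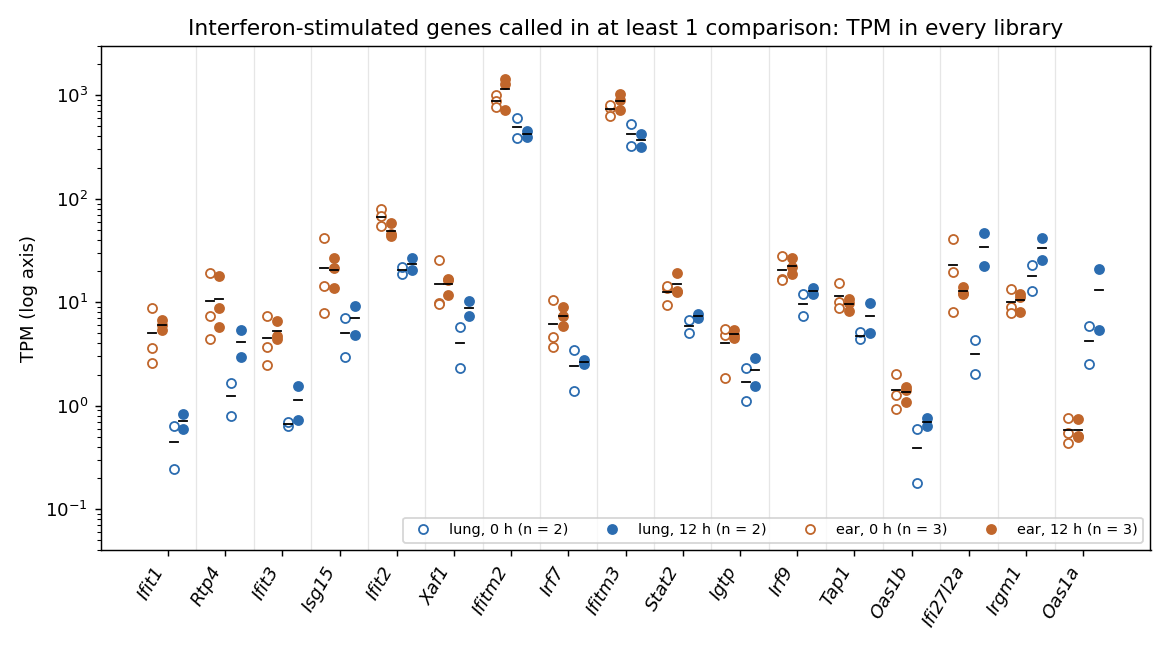
TPM of the 17 genes called in at least 1 comparison, in every library, on a log axis; open circles are 0 h, filled circles 12 h, and short black lines group means (ear n = 3 and 3, lung n = 2 and 2). Ifit1, Ifit2, Ifit3, Ifitm2, Ifitm3, Irf7, Irf9, Stat2 and Oas1b have every lung circle below every ear circle, and Oas1a every lung circle above.

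Among the other antiviral effectors, Rtp4 and Xaf1 were called lower in lung. Rtp4, a receptor transporter protein that restrains viral replication, was at 4.39, 19.0 and 7.37 TPM in ear at 0 h and 17.8, 8.74 and 5.76 TPM at 12 h. Lung libraries were at 0.797 and 1.66 TPM at 0 h and 2.94 and 5.39 TPM at 12 h, and only lung 12 h replicate 2 lay above an ear library (log2 fold change -1.62, SE 0.41, adjusted p = 0.016). It lost its call without lung 0 h replicate 1 (-1.48, adjusted p = 0.0694) or lung 12 h replicate 1 (-1.45, adjusted p = 0.0543). Xaf1, a protein that promotes cell death, was at 9.73, 25.5 and 9.68 TPM in ear at 0 h and 16.8, 16.5 and 11.7 TPM at 12 h. Lung libraries were at 2.32 and 5.72 TPM at 0 h and 10.2 and 7.40 TPM at 12 h, with lung 12 h replicate 1 above 2 ear libraries (log2 fold change -1.16, SE 0.31, adjusted p = 0.0214). It lost its call without lung 0 h replicate 1 (-0.91, adjusted p = 0.0963) or lung 12 h replicate 2 (-1.06, adjusted p = 0.0726). Mx2, a dynamin-like GTPase, was at 0.363 to 2.09 TPM in ear and 0.0649 to 0.374 TPM in lung (-0.71 on the log2 scale, SE 0.24, adjusted p = 0.0523). It was called lower with a pseudocount of 0.1, under quantile normalization, without the variance trend and without ear 0 h replicate 1. Isg20, an RNA exonuclease, and Pml, the scaffold of nuclear bodies, had ranges that overlapped between the tissues and were not called.

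The oligoadenylate synthetases make a messenger that activates an RNA-cutting enzyme, and they did not share 1 direction. Oas1a (ENSMUSG00000052776.10, chromosome 5, 120896256 to 120907521 of GRCm38) was at 0.435 to 0.764 TPM in the 6 ear libraries. Its lung levels were 5.84 and 2.55 TPM at 0 h and 5.35 and 20.8 TPM at 12 h, all above every ear library, as in 10.7% of all genes tested. The log2 fold change was 2.27 (SE 0.33, adjusted p = 0.00101) and remained a call without lung 12 h replicate 2, the library of the highest level (1.83, adjusted p = 0.000909). Its near-identical neighbour Oas1g was at 0 to 0.203 TPM in ear and 0.215 to 4.77 TPM in lung, highest in the same library. Oas1b, which confers resistance to flaviviruses in mice, went the other way, at 0.936, 2.02 and 1.28 TPM in ear at 0 h and 1.53, 1.09 and 1.42 TPM at 12 h. Lung had 0.180 and 0.593 TPM at 0 h and 0.765 and 0.641 TPM at 12 h, below every ear library (log2 fold change -0.62, SE 0.18, adjusted p = 0.0275). Near 1 TPM this fold change is understated by the pseudocount, and the call was lost when any of 6 libraries was left out (lung 0 h replicate 1, lung 12 h replicate 2, ear 0 h replicates 2 and 3, and ear 12 h replicates 1 and 3), with adjusted p from 0.0505 to 0.117. It was lost as well without both libraries with Ddx3y (adjusted p = 0.0564). Oasl2 was at 1.10 to 3.82 TPM in ear and 1.04 to 2.82 TPM in lung and was not called. Oas2, Oas3 and Oasl1 stayed under the filter of 1 TPM in 2 libraries. Of these, Oas3 was at 0 to 0.0487 TPM in ear and at 0.107, 0.0449, 0.202 and 2.36 TPM in the lung libraries, and Oas2 reached 0.988 TPM in lung 12 h replicate 2 and at most 0.0876 TPM in ear.

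The interferon-induced GTPases take part in defence against intracellular pathogens and also split by direction. Irgm1 was at 9.05, 13.4 and 7.87 TPM in ear at 0 h and 11.2, 12.0 and 8.10 TPM at 12 h. Lung had 12.8 and 22.9 TPM at 0 h and 41.9 and 25.6 TPM at 12 h, and only lung 0 h replicate 1 lay within the ear range (log2 fold change 1.16, SE 0.23, adjusted p = 0.0054). Igtp, a GTPase of the same family, was at 4.81, 5.56 and 1.85 TPM in ear at 0 h and 5.37, 4.85 and 4.54 TPM at 12 h, and in lung at 1.11 and 2.31 TPM at 0 h and 1.54 and 2.90 TPM at 12 h. Its ear 0 h replicate 3 lay within the lung range (log2 fold change -0.88, SE 0.27, adjusted p = 0.035). The call of Igtp was lost when lung 0 h replicate 1, lung 12 h replicate 1 or any ear library other than ear 0 h replicate 3 was left out, with adjusted p from 0.0595 to 0.142. The same held without the filter (0.0625) and without both libraries with Ddx3y (0.0676). The guanylate-binding protein genes Gbp2, Gbp3 and Gbp7 were at 0.28 (SE 0.26), -0.59 (SE 0.29) and -0.51 (SE 0.24) and were not called. Gvin1, a very large GTPase gene, did not pass the filter. It was listed at 0 in 5 of 6 ear libraries and at 0.0274 TPM in ear 12 h replicate 2, and in lung at 0.0468 and 0.117 TPM at 0 h and 0.457 and 0.600 TPM at 12 h.

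Genes for antigen processing carry peptides to MHC class I. Tap1, a subunit of the peptide transporter, was at 15.5, 10.2 and 8.81 TPM in ear at 0 h and 9.76, 10.8 and 8.29 TPM at 12 h. In lung it was at 4.41 and 5.11 TPM at 0 h and 4.995 and 9.86 TPM at 12 h, with lung 12 h replicate 2 within the ear range (log2 fold change -0.73, SE 0.21, adjusted p = 0.0289). The call was lost without lung 0 h replicate 1 or 2, lung 12 h replicate 1, or ear 12 h replicate 1 or 2, with adjusted p from 0.0543 to 0.103. Without the filter it was at 0.0514, and without both libraries with Ddx3y at 0.0892. Psmb8 and Psmb9, subunits of the immunoproteasome, were not called with all libraries. Psmb8 was at 10.3 to 17.2 TPM in ear, at 14.6, 14.05 and 13.7 TPM in 3 lung libraries and at 52.8 TPM in lung 12 h replicate 2. Psmb9 was at 4.21 to 13.8 TPM in ear, at 3.68 to 7.003 TPM in the same 3 lung libraries and at 17.1 TPM in lung 12 h replicate 2. Among the remaining IFI genes, Ifi27, Ifi35 and Ifi44 were not called, at -0.60 (SE 0.25), -0.26 (SE 0.15) and 0.10 (SE 0.36).

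Some of these genes were highest in the library with the most macrophage transcripts. Lung 12 h replicate 2, with the highest summed macrophage level of 16932 TPM, also had the highest level of all 10 libraries for 9 of the 45 genes. Among them were Oas1a, Oas2, Oas3, Psmb8 and Psmb9. The share of all genes highest in lung 12 h replicate 2 among the 10 libraries was not computed. Between the lung libraries at 12 h, replicate 2 was the higher for 19 of the 39 members tested (48.7%, against 58.7% of all genes). Ear 0 h replicate 2, with a macrophage sum of 26.3 TPM, was the highest of all 10 libraries for 17 of the 45 genes. In the other 3 lung libraries, with macrophage sums of 5344 to 7329 TPM, Psmb8 and Psmb9 lay within their ear ranges or below. Irgm1 was highest in lung 12 h replicate 1, where the macrophage sum was 7329 TPM. The genes called lower in lung were lower in libraries with a summed fibroblast marker level of 3336 to 6600 TPM, against 5585 to 13856 TPM in ear. The part of cell composition in these results was not tested.

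**Figure D3:**
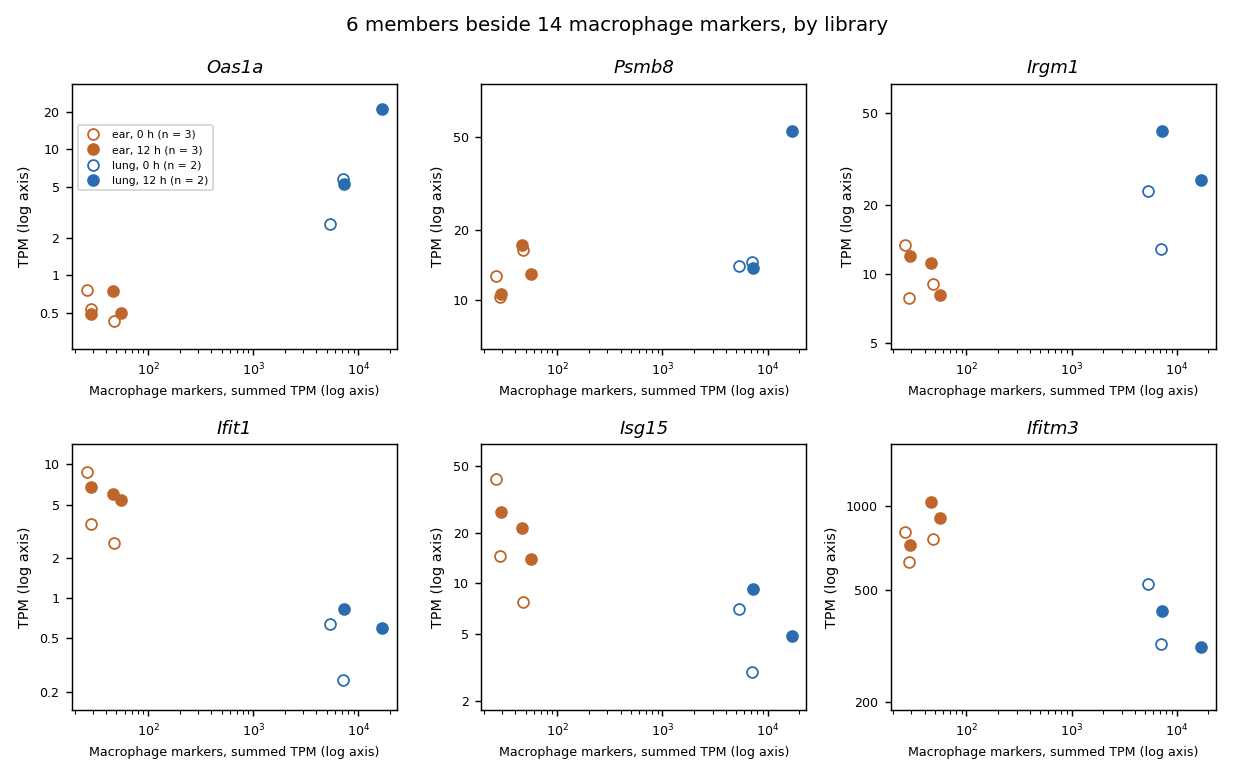
TPM of 6 genes in each of 10 libraries (vertical log axes) against the summed TPM of 14 macrophage markers in the same library (horizontal log axes); orange marks ear and blue lung, open 0 h and filled 12 h. The markers lie at 26.3 to 55.8 TPM in ear and 5344 TPM or more in lung, and Oas1a and Psmb8 are highest where they are highest, at 20.8 and 52.8 TPM.

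At each time taken alone, fewer genes passed the threshold. At 0 h, 8 of 39 members were lower in lung (20.5%, against 5.17% of all genes called lower) and 0 were higher (against 6.11%), where 11.3% of all genes were called in either direction. They were Stat2, Ifit1, Ifit2, Ifit3, Xaf1, Rtp4, Tap1 and Ifi27l2a, and the median log2 fold change was -0.65 for the members and -0.08 for all genes. The count depended on single libraries. It was 1 without lung 0 h replicate 1, 3 without ear 0 h replicate 2, 4 without lung 0 h replicate 2, and 5 without ear 0 h replicate 1, ear 12 h replicate 2 or ear 12 h replicate 3. Ifit2 kept its call in all 10 of these fits (log2 fold change -1.66, SE 0.22, adjusted p = 0.00141). Ifit1 lost it only without lung 0 h replicate 1 (adjusted p = 0.11), and Ifit3 without lung 0 h replicate 1 (0.13) or 2 (0.085). Stat2 lost its call when any of 6 libraries was left out, lung 0 h replicates 1 and 2, ear 0 h replicates 1 and 2, or ear 12 h replicates 2 and 3 (adjusted p 0.0505 to 0.285). Rtp4 lost its call without lung 0 h replicate 1 or 2, ear 0 h replicate 2 or 3, or ear 12 h replicate 2 (adjusted p 0.0606 to 0.277). Xaf1 lost it without any library but lung 0 h replicate 2 (0.0521 to 0.361), and Tap1 without any but the lung 12 h libraries (0.0574 to 0.273). Without the 2 libraries with Ddx3y, both at 0 h, 3 members were called. Without the filter on low values 3 were called too, and Stat2 (0.065), Xaf1 (0.0894), Rtp4 (0.0894), Tap1 (0.088) and Ifi27l2a (0.0665) lost their calls. At 12 h, 6 of 39 were lower (15.4%, against 9.12%) and 2 were higher (5.13%, against 8.07%), where 17.2% of all genes were called in either direction.

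The genes lower in lung at 12 h were Stat2, Ifit1, Ifit2, Ifit3, Ifitm2 and Ifitm3, and the genes higher were Oas1a (log2 fold change 2.90, SE 0.47, adjusted p = 0.00323) and Irgm1 (1.58, SE 0.33, adjusted p = 0.0106). The members' median was -0.52 and that of all genes -0.14. Ifit1 (-2.04, SE 0.38, adjusted p = 0.00648) and Oas1a kept their calls whichever library was left out. Without lung 12 h replicate 2 the count was 4, since Ifit2 (adjusted p = 0.0825), Ifit3 (0.11), Ifitm2 (0.0897), Ifitm3 (0.0739) and Stat2 (0.106) lost their calls and Pml gained one. Ifitm2 also lost it without ear 12 h replicate 3 (0.0529), Irgm1 without lung 12 h replicate 1 (0.0684), and Stat2 without lung 12 h replicate 1, ear 0 h replicate 2 or ear 12 h replicate 1 or 3 (0.0532 to 0.122). Stat2 lost its 12 h call without the filter too (0.0604). Ifit1, Ifit2, Ifit3 and Stat2 were the 4 members called at both times. No test of the interaction of tissue and time was past the threshold for any member, so the tissue difference was not shown to change with time.

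The comparison of 12 h with 0 h asked whether these transcripts shift with time. No member was called in ear, in lung, in the mean of both tissues or in the interaction, with limma adjusted over all genes. All genes gave 0% called in ear, 0.00758% (1 gene) in lung and in the mean, and 0% in the interaction. At an unadjusted p under 0.05 there were 0 members in ear, 4 in lung (Oas1a, Pml, Irgm1 and Ifi27l2a), 2 in the mean and 2 in the interaction (Pml and Ifi27l2a in both). In ear the log2 fold changes lay between -0.78 for Psmb9 and 1.19 for Ifitm1, with a median of 0.13 and a median SE of 0.32. In lung they lay between -0.85 for Pml and 3.06 for Ifi27l2a, with a median of 0.31 and a median SE of 0.39. The absence of calls does not show that levels stayed equal.

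Ifi27l2a, a small interferon-inducible protein gene, had the largest log2 fold change with time among the members tested, and it is singled out here after its values were seen. Lung libraries held 2.01 and 4.30 TPM at 0 h and 22.6 and 46.3 TPM at 12 h, with no overlap and a ratio of means of 10.9. That ratio was higher for the untested Oas2 and Oas3, at 17.3 and 16.9, mostly through lung 12 h replicate 2 and at 0 h levels of at most 0.107 TPM. In ear it was at 41.0, 19.7 and 8.02 TPM at 0 h and at 14.01, 12.2 and 11.9 TPM at 12 h. The log2 fold change with time was 3.06 in lung (SE 0.62, unadjusted p = 0.000749, limma adjusted p = 0.6) and -0.54 in ear (SE 0.51), and the difference between them was 3.60 (SE 0.80, unadjusted p = 0.00141, limma adjusted p = 1). It was lower in lung than in ear at 0 h (-2.31, SE 0.57, adjusted p = 0.0297), a call lost without lung 0 h replicate 1 (0.24) or 2 (0.0654) or ear 0 h replicate 1 (0.056) or 2 (0.0729). At 12 h both lung libraries lay above all 3 ear libraries, and the difference was not called (1.29, SE 0.57, adjusted p = 0.156). Its paralog Ifi27l2b stayed at or below 0.36 TPM in ear, and its lung libraries held 2.89 and 1.21 TPM at 0 h against 6.77 and 7.18 TPM at 12 h. All 14 macrophage markers had a positive fold change with time in lung, with a median of 1.06 and none called, and their part in the levels of Ifi27l2a was not tested.

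In lung, 12 of the 39 members (30.8%) had both 12 h libraries above both 0 h libraries, where 11.1% of all genes did. They were Irf9, Stat2, Eif2ak2, Ifit3, Oas1b, Oasl2, Xaf1, Rtp4, Bst2, Irgm1, Ifi27l2a and Ifi44. Pml alone (2.56%, against 14.3% of all genes) had both below, at 34.9 and 30.4 TPM at 0 h and 14.7 and 21.1 TPM at 12 h (log2 fold change -0.85, SE 0.22, limma adjusted p = 0.926). In ear, 0 members had all 3 libraries at 12 h above all 3 at 0 h, against 3.93% of all genes. Psmb9 alone (2.56%, against 1.44%) had them all below, at 13.8, 6.11 and 8.64 TPM at 0 h and 5.26, 5.20 and 4.21 TPM at 12 h (-0.78, SE 0.46). A call in lung came with 2 changes of setting. Gvin1, untested under the filter, was called without it (0.50, SE 0.05, adjusted p = 0.031), with a small SE for a gene listed at 0 in most ear libraries. Oas1a was called without lung 12 h replicate 1 (2.15, adjusted p = 0.0483), where the single lung library left at 12 h is the one with the highest macrophage level.

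**Figure D4:**
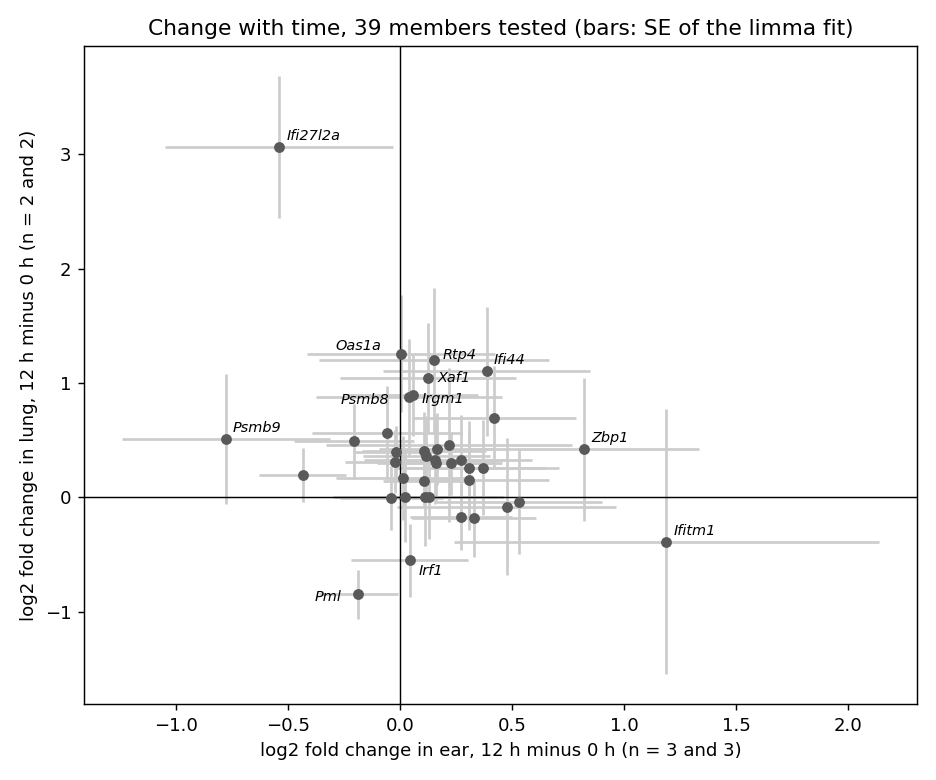
Log2 fold change of 12 h minus 0 h in ear (horizontal axis) against lung (vertical axis) for the 39 genes tested, on the log2(TPM + 1) scale, with bars of 1 SE; no point passed the threshold on either axis. Ifi27l2a stands at 3.06 in lung and -0.54 in ear, and Ifitm1 at 1.19 in ear through 1 library.

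The members varied together between libraries of the same group. Ear 0 h replicate 2 was the highest of its 3 libraries for 25 of the 39 members (64.1%, against 22.7% of all genes). Ear 0 h replicate 3 was the lowest for 24 of the 39, where 43.8% of all genes were lowest in it. The Isg15 level of 41.8 TPM in ear 0 h replicate 2 stood beside 7.80 and 14.5 TPM in the other libraries of that group. Its Mx2 level of 2.09 TPM stood beside 0.363 and 0.605 TPM, and its Usp18 level of 7.03 TPM beside 0.883 and 3.69 TPM. Ear 0 h replicate 2 also had the highest level of all 10 libraries for 17 of the 45 genes. Lung 0 h replicate 1 had the lowest for 24 of the 45. The share over all genes was not computed for these counts over 10 libraries. At 12 h, ear replicate 1 was the highest for 26 members (66.7%, against 46.8%) and ear replicate 3 the lowest for 24 (against 37.1% of all genes). In lung at 0 h, replicate 2 was the higher for 33 (84.6%, against 57.8%), and in lung at 12 h the replicates were even, at 20 and 19. The 2 libraries of 0 h in which most members were highest are those with Ddx3y, Eif2s3y and Kdm5d, whose part in this was not tested. Ear 12 h replicate 1, without these 3, also had most members highest, together with the highest summed fibroblast marker level of 13856 TPM.

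**Figure D5:**
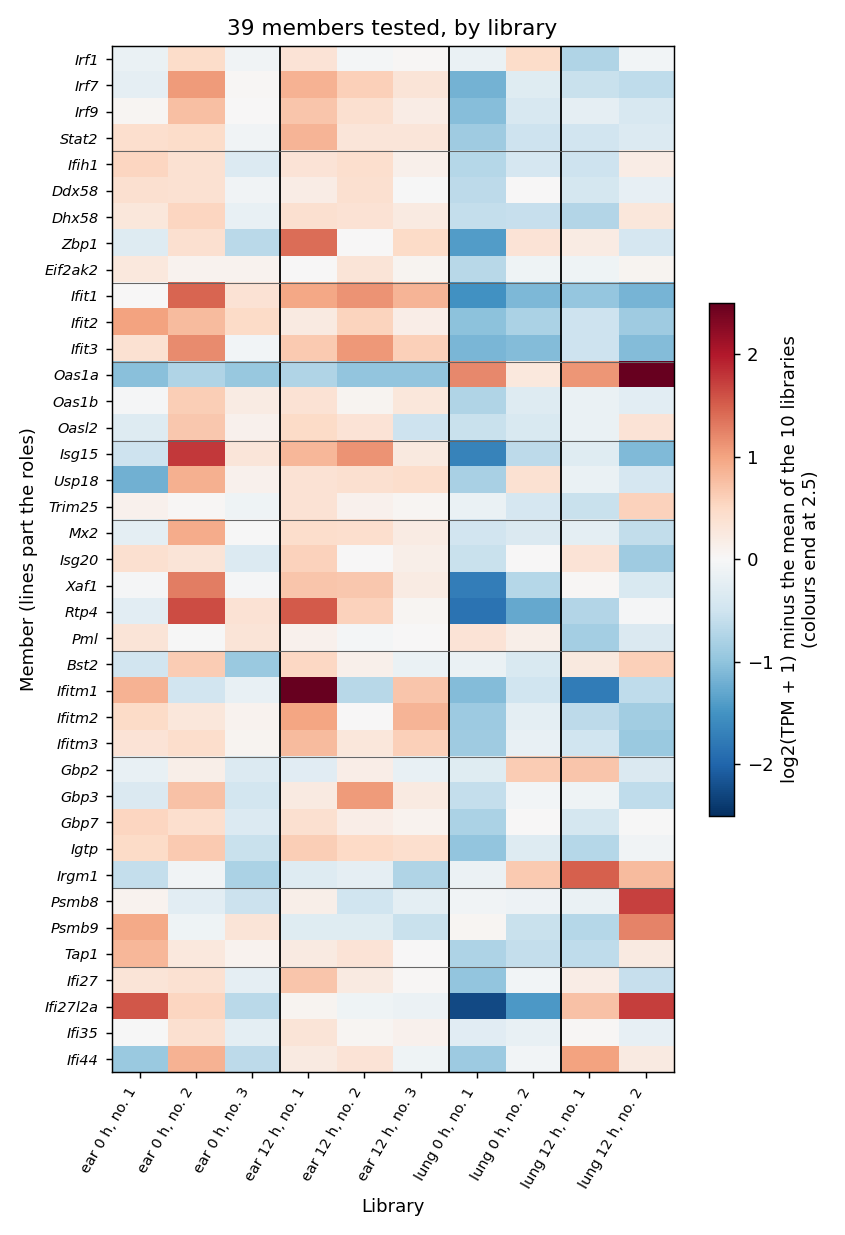
Heat map of log2(TPM + 1) minus the mean of the 10 libraries for the 39 genes tested (rows, grouped by role) in each library (columns); red is above and blue below that mean, and colours end at 2.5. The IFIT rows and Isg15 are red in most ear libraries and blue in lung, Oas1a and Irgm1 the reverse, and ear 0 h replicate 2 is red in most rows.

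The rest of the pathway was described with 58 further genes, of which 45 passed the filter. None of the 11 interferon genes listed did. Ifna2, Ifna4, Ifng, Ifnl2 and Ifnl3 were listed at 0 in every library, and the highest single value was 0.226 TPM, of Ifna13 in ear 0 h replicate 3. Averaged over both times, 6 of the 45 were higher in lung and 6 lower (all genes: 12.3% and 15.9%). The receptor subunits Ifngr2, at 20.8 to 27.04 TPM in ear and 37.5 to 53.5 TPM in lung (0.82 on the log2 scale, SE 0.13, adjusted p = 0.00162), and Il10rb, at 26.2 to 31.7 and 52.5 to 95.5 TPM (1.09, SE 0.17, adjusted p = 0.0014), were higher. Ifnar1 was at 19.2 to 31.2 TPM in ear and 20.9 to 37.4 TPM in lung and was not called (0.10, SE 0.17). Also higher were genes known for their expression in blood cells: Irf8, a factor of myeloid cells, at 0.0658 to 0.292 TPM in ear and 4.68 to 22.7 TPM in lung (3.17, SE 0.32, adjusted p = 0.000115), and Ptpn6, a phosphatase that dampens signalling, at 0.483 to 2.04 and 14.1 to 103 TPM (3.65, SE 0.42, adjusted p = 0.000282). Tlr7, an endosomal RNA sensor (1.88, SE 0.47, adjusted p = 0.0157), and Psmb10, an immunoproteasome subunit (0.53, SE 0.15, adjusted p = 0.0246), were higher too. These 6 were all highest in lung 12 h replicate 2, the library with the highest macrophage level, and the part of macrophages in them was not tested.

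Among the pathway genes lower in lung was Irf3, the factor that starts interferon transcription (log2 fold change -0.50, SE 0.14, adjusted p = 0.03). The negative regulators Socs3 (-1.49, SE 0.38, adjusted p = 0.0174) and Ptpn2 (-0.64, SE 0.16, adjusted p = 0.0173), Tmem173, the adaptor of DNA sensing also called STING (-0.79, SE 0.20, adjusted p = 0.0175), and Nlrc5, the activator of MHC class I genes (-1.01, SE 0.31, adjusted p = 0.0354), were lower as well. Without lung 0 h replicate 1 each of these 5 lower genes lost its call (adjusted p = 0.0848 for Irf3, 0.0789 for Socs3, 0.081 for Ptpn2, 0.074 for Tmem173 and 0.0983 for Nlrc5), and so did Tlr7 (0.0669) and Psmb10 (0.0896). Calls were also lost for Socs3 (0.0682) and Ptpn2 (0.0514) without lung 12 h replicate 2, and for Tmem173 without lung 12 h replicate 1 (0.0578). Psmb10 lost its call without 3 further libraries, lung 0 h replicate 2, lung 12 h replicate 2 and ear 12 h replicate 2 (0.0502 to 0.0746). Nlrc5 lost it without lung 0 h replicate 2, lung 12 h replicate 1 or ear 12 h replicate 1 or 3 (0.0616 to 0.104), and Irf3 without lung 0 h replicate 2, lung 12 h replicate 2, ear 0 h replicate 1 or 2 or ear 12 h replicate 1 or 2 (0.0503 to 0.094). Without both libraries with Ddx3y Irf3 (0.152), Tmem173 (0.0703), Psmb10 (0.0676) and Nlrc5 (0.0532) were not called, nor was Nlrc5 without the filter (0.0649) or Irf3 under quantile normalization (0.0539) or upper-quartile scaling (0.0534). Ifngr2, Il10rb, Irf8 and Ptpn6 kept their calls in all 10 such fits. No pathway gene was called with time. The MHC class I genes B2m, H2-K1 and H2-D1 were highest or next to highest in lung 12 h replicate 2, at 1759, 74.5 and 687 TPM, and were not called between the tissues.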

How the data were processed

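RNA of 10 libraries was analysed. The authors deposited one table of TPM per transcript, a share of the library corrected for transcript length, made with kallisto 0.44.1 against GRCm38, per the submitters' processing notes. The sources used here do not give the index, trimming or bias settings, and since TPM keeps no read counts the depth is unknown. Each column sums to 1000000. Of 61440 transcripts, 60503 were matched to GENCODE M21 by ID, and the 937 unmatched ones held 0.508% to 0.59% of TPM. TPM was summed to 22594 genes. A gene was tested if 2 or more libraries held it at 1 TPM or higher, which left 13188 genes and 39 of the 45 members. Limma 3.58.1 in R 4.3.3 fitted 4 group means to log2(TPM + 1), with a variance trend, 6 residual degrees of freedom and two-sided tests. Benjamini-Hochberg adjustment ran over all genes tested, with a threshold of 0.05. A fold change on this scale understates that of low genes. The procedure was tested on simulated data. Tables were made with Python 3.11.15 and pandas 2.3.3.

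Lung was compared with ear at 0 h, at 12 h and as the mean of both, 12 h with 0 h in each tissue and as the mean of both, and the interaction was tested. Same-numbered ear libraries deviated together from their group means (r = 0.45, 0.32 and 0.38), so the numbers pair the ear libraries by that measure. Ddx3y, however, was found in ear 0 h replicate 2 and was near 0 in ear 12 h replicate 2. No fit of lung against ear took such a pairing into account. The ear libraries of both times were treated as independent there. The members and all gene lists were chosen with earlier results of these data known. A member is named with every library's TPM if it was called in any comparison and was among the 20 with the largest mean tissue difference, or was called with time, and the pathway genes called in those comparisons are named, except for a result that is not reported here. Ifi27l2a and Gvin1, and members given as examples without a call, were named after their values were seen. Alternatives were other pseudocounts, filters, scalings and variance priors, a block on replicate number, and each library left out.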

Additional observations from a re-analysis of the deposited data

How the results depend on the processing

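No called difference of a named gene changed its sign under any alternative. Leaving out 1 library at a time gave 1 to 8 members called in lung against ear at 0 h (8 with all libraries), 4 to 9 at 12 h (8) and 8 to 18 over both times (16), and for 12 h against 0 h it gave 0 in ear, 0 to 1 in lung and 0 in the mean and the interaction. Over all genes these fits gave 547 to 1752 calls at 0 h (1488), 1356 to 2468 at 12 h (2267) and 2360 to 3653 over both times (3715), and with time 0 in ear, 0 to 121 in lung (1), 0 to 29 in the mean (1) and 0 to 21 in the interaction (0). At 0 h, 3 members were called without a filter and 3 without both libraries with Ddx3y, an alternative chosen after seeing the data, which left 555 genes called. The replicate block gave 5 members and 745 genes at 0 h, 6 members and 1164 genes at 12 h, and 14 members and 2206 genes over both times. Over both times, the members that lost their call with the block were Oas1b (adjusted p = 0.121) and Tap1 (0.0543), and among pathway genes Irf3 (0.0612), Ptpn2 (0.119), Tmem173 (0.0692), Psmb10 (0.134) and Nlrc5 (0.0742) lost theirs. At 0 h Stat2, Rtp4 and Tap1 lost theirs, and at 12 h Stat2, Ifit2 and Ifitm2. Across tissues, same-numbered libraries did not deviate together at 0 h (r = -0.19 and -0.04). At 12 h they gave weakly positive values (r = 0.26 for both pairs). The labels do not say whether libraries joined by this block share more than a number. In lung the same-numbered libraries gave r = -0.44, and a block with the lung numbers crossed, chosen after seeing the data, called 0 genes with time in lung and in the mean. For time in lung, 1 member and 7 genes were called without a filter, and 0 genes with a pseudocount of 0.1, a filter of 5 TPM, the replicate block, or without the Ddx3y libraries. The same 4 settings gave 0 genes in the mean of both tissues. In the interaction, 2 genes were called without a filter and 1 each under quantile normalization, upper-quartile scaling and a fit without variance trend. The cause of these shifts was not tested. Some members not called with all libraries gained a call when 1 lung library was left out. Over both times these included Isg20 and Psmb8 without lung 12 h replicate 1. Trim25 gained one without lung 12 h replicate 2, and Ifi27 without lung 0 h replicate 2. At 12 h, Psmb8 and Psmb9 gained one without lung 12 h replicate 1. With 2 lung libraries per time, a fit without 1 of them takes the spread of the lone library from the other groups. Depth is unknown, so the error of levels near 0 cannot be given.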
